A study of Mus musculus with 12 samples.

Results

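The core genes of the circadian clock were followed in mouse pituitary cells sorted as corticotrophs, the ACTH-producing cells, during and after prolonged glucocorticoid treatment. The 10 genes were chosen by name for their place in the clock, though with earlier results of these data known: *Per1*, *Per2*, *Per3*, *Cry1*, *Cry2*, *Arntl* (also called *Bmal1*), *Clock*, *Nr1d1*, *Nr1d2* and *Dbp*. All 10 were among the 55304 genes of the table, and all 10 passed the filter on low values that left 24736 genes to be tested. The mice were 36 males carrying a *Pomc*-eGFP transgene, in which the *Pomc* promoter drives a green fluorescent protein, on a C57BL/6J background, and they were 8 weeks old at the start. Control mice received no drug. DEX mice received dexamethasone, a synthetic glucocorticoid, at 2.5 µg/ml in the drinking water for 4 weeks, and 2 further groups had the same 4 weeks of DEX followed by 1 week or 4 weeks without it. Each group had 3 libraries (n = 3), and each library held eGFP positive anterior pituitary cells sorted by fluorescence and pooled from 2 to 3 mice, so the replicates are pools and not mice. All mice were collected at one end point, in the early part of their rest period. The clock was therefore seen at a single time of day, and a change in the level of a rhythmic transcript cannot be told apart from a change in its phase.

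The clock of mammalian cells is a loop of transcription factors. CLOCK and BMAL1 bind E-box sequences as a pair and switch on the *Per* and *Cry* genes, whose proteins return to the nucleus and block that pair. Another loop runs through the nuclear receptors REV-ERBα and REV-ERBβ (encoded by *Nr1d1* and *Nr1d2*), which repress *Arntl*, and DBP carries the rhythm to further genes through D-box sequences, which *Per3* also carries. Glucocorticoids set the phase of clocks in many tissues, and *Per1* is a direct target of their receptor.

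The binding sequences named above were searched for, on both strands, in the 250 bases before each start site in the RefSeq promoter set (GRCm38.p6). Of the 10 members 9 had an entry, and *Per2* did not. The stretches below are those of *Per3*, *Ciart*, *Per1* and *Cry1*. *Per3* was the one member with an adjusted p under 0.05 in limma between 2 of the groups, and *Ciart* the one other clock gene. Neither passed limma's test across the 4 groups. *Per1* and *Cry1* are the 2 members with a canonical E-box. Capitals mark the E-box (CACGTG) and the D-box (TTATGTAA or TTATGCAA).
*Per3*, chr4:151044796-151044890, minus strand: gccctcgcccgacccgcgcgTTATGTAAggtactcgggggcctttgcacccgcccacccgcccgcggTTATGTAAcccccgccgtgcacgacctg
*Ciart*, chr3:95882247-95882364, minus strand: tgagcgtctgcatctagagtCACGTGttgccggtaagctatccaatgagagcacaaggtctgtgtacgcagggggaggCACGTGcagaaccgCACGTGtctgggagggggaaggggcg
*Per1*, chr11:69098763-69098948, plus strand: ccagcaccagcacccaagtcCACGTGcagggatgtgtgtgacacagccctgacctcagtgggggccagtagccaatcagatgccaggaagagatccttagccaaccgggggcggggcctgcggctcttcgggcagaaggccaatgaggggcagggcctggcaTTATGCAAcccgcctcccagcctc
*Cry1*, chr10:85185089-85185134, minus strand: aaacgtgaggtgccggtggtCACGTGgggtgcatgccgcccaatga

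*Per3* held 2 copies of the D-box TTATGTAA, which was present in 0.819% of the 32851 promoter windows of the set. *Ciart* held 3 copies of the canonical E-box, a motif found in 6.02% of windows. *Per1* held 1 E-box and 1 D-box of the form TTATGCAA (0.694% of windows), in a window that starts inside the span of the gene in GENCODE. The E-box variant CACGTT, found in 3.85% of windows, occurred in *Cry1*, *Cry2* and *Nr1d1*. None of these matches shared bases with another. The ROR element TAGGTCA (2.23% of windows) and the glucocorticoid receptor element ACANNNTGT (5.84% of windows) had no match in the windows of the 9 members, and *Arntl*, *Clock*, *Nr1d2* and *Dbp* had no match to any of the 6 letter strings. These are matches of letters in a short window and say nothing about binding in these cells.

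The libraries held 7719894 to 12848078 reads on genes. Values are normalised counts, that is, counts relative to the scaled library size (CPM). The clock genes were expressed at low to moderate levels, from 70 reads for *Per2* in its lowest pool to 2965 for *Cry2* in its highest. Differences are log2 fold changes of the value plus 0.1, tested with limma across all 24736 genes, and a gene was called when its p adjusted by Benjamini-Hochberg lay under 0.05. Intervals are at 95% without adjustment. With 3 pools against 3 an exact permutation test cannot go below p = 0.1. Control pool 3 and the pools at 1 week of recovery stood apart: the chi-square per gene was 67.2 to 108 between control pool 3 and the other control pools and 78.3 to 145 between the pools at 1 week, against 15.9 to 42.2 for the other pairs within a group. The sum of 5 corticotroph markers, most of it *Pomc*, ran from 34935 to 75012 in control pools and from 5317 to 9173 in DEX pools. Fewer cells of a type and less RNA per cell cannot be told apart in such pools. *Gh* and *Prl*, hormones of somatotrophs and lactotrophs, were abundant in every pool, with sums of their markers from 67667 to 265990 and from 31514 to 119834.

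Across the 4 groups, none of the 10 clock genes passed limma's F test, in which 0.315% of all genes were called. *Per3* was nearest, with an adjusted p of 0.0982. At an unadjusted p under 0.05, 4 of the 10 members were counted (*Per1*, *Per3*, *Nr1d2* and *Dbp*), where 9.21% of all genes were. On recovered read counts edgeR's quasi-likelihood test also called 0 members, DESeq2 called 1 (*Per3*, adjusted p 0.00354) and edgeR's likelihood ratio test called 3 (*Per3*, *Nr1d2* and *Dbp*), with 0.639%, 2.97% and 4.18% of all genes called by these tools.

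**Figure D1:**
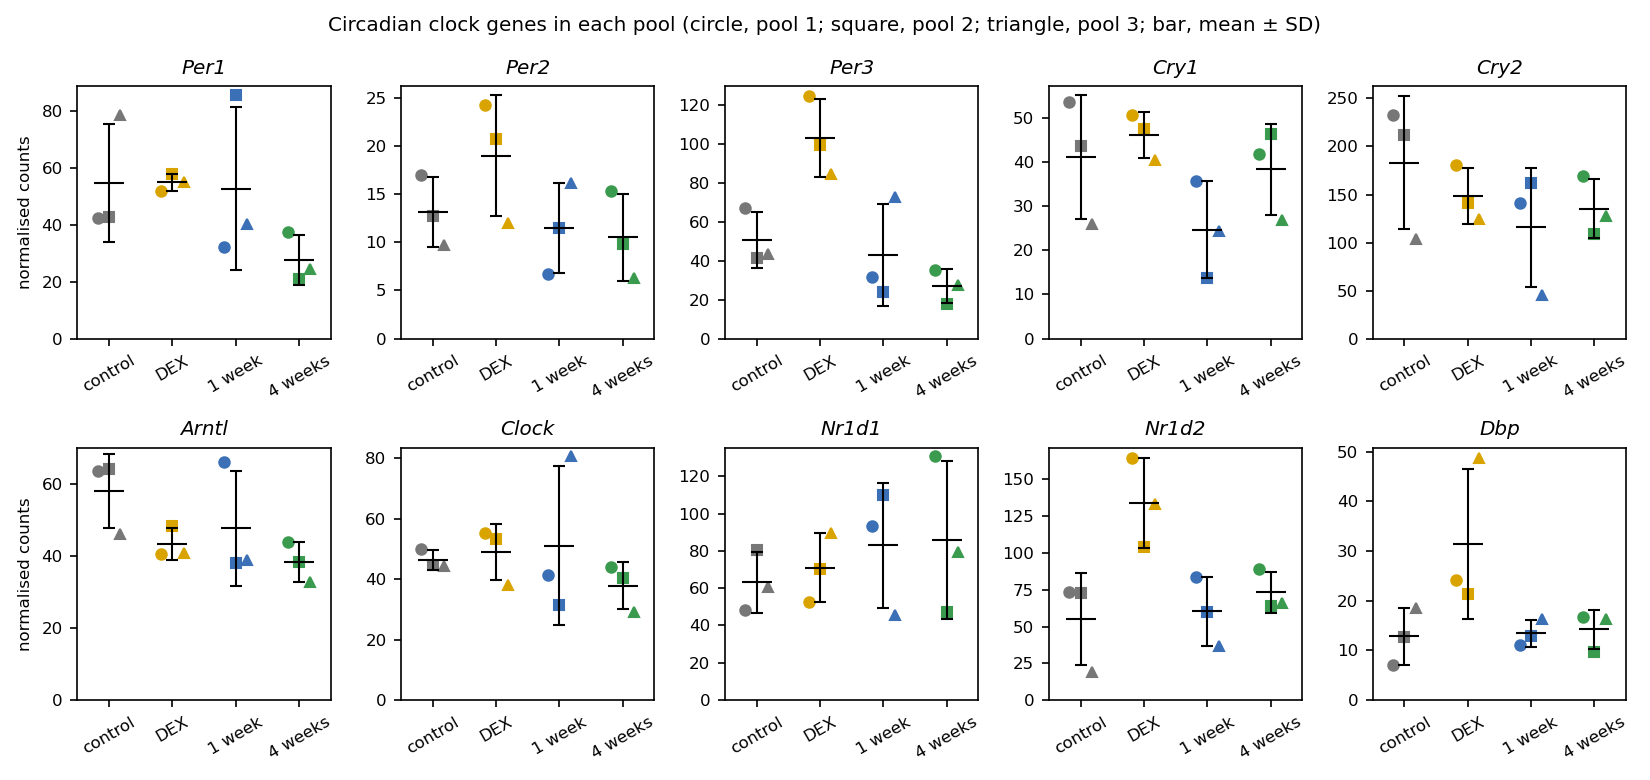
Normalised counts of the 10 clock genes (vertical axis, from 0) in control pools, DEX pools and pools at 1 week and 4 weeks of recovery. Each symbol is a pool (circle, pool 1; square, pool 2; triangle, pool 3), and the bars give the mean and SD of 3 pools. The 3 DEX pools lie above the 3 control pools for *Per3*, *Nr1d2* and *Dbp*, and the 3 pools at 4 weeks of recovery lie below them for *Per1*, *Per3*, *Arntl* and *Clock*.

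The period genes encode the repressors that CRY proteins accompany into the nucleus. *Per3*, on the minus strand of chromosome 4 (151003652 to 151044665), had 67.0, 41.5 and 43.2 normalised counts in control pools 1, 2 and 3 and 124, 99.5 and 84.5 in the DEX pools. After 1 week of recovery the pools held 31.8, 23.8 and 72.7, and after 4 weeks 35.1, 17.8 and 27.5. The DEX pools were thus the highest 3 of all 12, and the pools at 4 weeks lay below every control and every DEX pool. The pool at 72.7 was pool 3 at 1 week, the only one of its group above the controls.

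*Per3* fell between the end of DEX and 4 weeks of recovery by 1.97 on the log2 scale (interval −2.76 to −1.18), to 3.92-fold lower levels. It was the one member called in this comparison (limma, adjusted p = 0.0235), in which 0.873% of all genes were called and 0.461% were called in that direction. The call was lost in each of the 6 fits that left out 1 DEX pool or 1 pool at 4 weeks, with adjusted p from 0.0528 to 0.141, although the log2 fold change stayed between −2.19 and −1.70. After 1 week of recovery *Per3* stood 1.41 lower than in DEX pools on the log2 scale (adjusted p = 0.110), and without pool 3 at 1 week this became 1.88 lower with an adjusted p of 0.0145. Against control, the log2 fold change was 1.04 at the end of DEX (SE 0.372, adjusted p = 0.526), −0.37 at 1 week (adjusted p = 1.0) and −0.93 at 4 weeks (adjusted p = 0.728). These comparisons share their DEX or control pools and are not independent of each other.

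Markers of corticotrophs and of other cells moved with the *Per3* difference between DEX and 4 weeks of recovery. The sum of the corticotroph markers was 5317 to 9173 in DEX pools, 43676 to 285385 at 1 week and 48354 to 80547 at 4 weeks. The sums of the thyrotroph markers were 43.9 to 258 in DEX pools and 452 to 711 at 4 weeks, those of the stem and folliculostellate markers 41.4 to 54.6 and 91.2 to 113, and those of the somatotroph markers 67667 to 104322 and 150409 to 265990. Endothelial markers summed to 1.23 to 3.68 and 22.4 to 50.9, and pericyte and fibroblast markers to 0.561 to 7.77 and 39.0 to 58.0, with 3 of the 4 pericyte and fibroblast markers at 0 in DEX pool 3. Lactotroph markers summed to 48163 to 73365 in DEX pools and 86399 to 119834 at 4 weeks. For macrophages and myeloid cells the sums were 13.2 to 15.7 and 16.4 to 35.6, and for erythroid cells 0.899 to 1.12 and 3.23 to 35.7. Of the 35 marker genes tested, the 5 of corticotrophs included, limma called 6 in this comparison, where 0.873% of all genes were called. It called 2 between 1 week and DEX (0.433% of all genes). In the comparisons against control it called 0 markers, with 0.121% of all genes called for DEX and 0% at 1 week and 4 weeks. Against control, the pools at 4 weeks also lay above every control pool in the sums for thyrotrophs (123 to 277 in controls), stem and folliculostellate cells (36.4 to 67.7), endothelial cells (4.48 to 15.0) and pericytes and fibroblasts (4.09 to 25.4). The same held for lactotrophs (31514 to 79022 in controls) and gonadotrophs (551 to 632 in controls and 645 to 968 at 4 weeks). It also held for macrophages and myeloid cells (15.1 to 15.8 in controls). There 11 of the 35 markers had an unadjusted p under 0.05 in limma, where 6.35% of all genes did. Their part in the clock gene values, those of *Per1*, *Per3*, *Arntl* and *Clock* at 4 weeks against control included, was not tested.

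*Per1* (chromosome 11, 69095217 to 69109960, plus strand), the period gene best known as a glucocorticoid target, held 42.2, 42.9 and 78.5 normalised counts in control pools and 51.9, 58.0 and 55.0 in DEX pools. DEX pools lay inside the range of the controls, and the log2 fold change was 0.07 with an interval of −0.68 to 0.82. Without control pool 3, the highest control and a pool that stood apart, it was 0.37. With single pools left out it ran from −0.08 to 0.37, and it was called in none of these fits. The values were 32.2, 85.4 and 40.2 after 1 week of recovery and 37.4, 21.0 and 24.4 after 4 weeks. The pools at 4 weeks lay below all control and all DEX pools, with log2 fold changes of −0.96 against control (limma, adjusted p = 0.685) and −1.03 against DEX (adjusted p = 0.246), neither of which was called.

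*Per2* (chromosome 1, 91415982 to 91459324, minus strand) had the fewest reads of the 10 in a single pool and held 16.99, 12.7 and 9.68 normalised counts in control pools, 24.2, 20.7 and 11.999 in DEX pools, 6.75, 11.5 and 16.1 at 1 week and 15.3, 9.85 and 6.32 at 4 weeks. All 4 groups overlapped. The log2 fold change was 0.50 for DEX against control (interval −0.36 to 1.37), −0.75 for 1 week against DEX and −0.88 for 4 weeks against DEX (limma, adjusted p = 0.880, 0.542 and 0.494). Over the 3 period genes the log2 fold change for DEX against control went from 0.07 in *Per1* through 0.50 in *Per2* to 1.04 in *Per3*, with intervals that overlapped. Between 4 weeks of recovery and DEX all 3 had negative log2 fold changes.

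**Figure D2:**
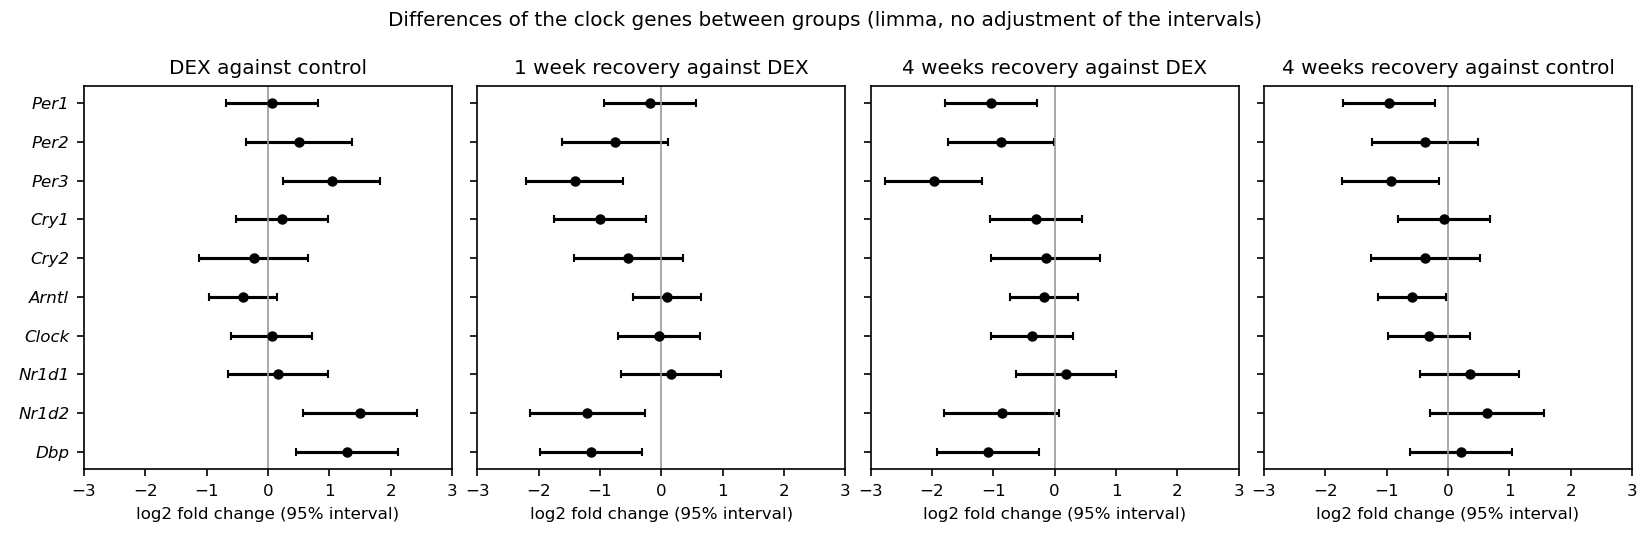
Log2 fold change (horizontal axis) of each clock gene in 4 comparisons between groups, with dots for limma's estimate and bars for its 95% interval, not adjusted for the number of genes. The intervals of *Per3*, *Nr1d2* and *Dbp* lie above 0 for DEX against control, and *Per3* at −1.97 in 4 weeks of recovery against DEX is the one difference that passed the adjusted threshold.

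The cryptochrome genes encode the partners of PER in the repressor complex. *Cry1* (chromosome 10, 85131700 to 85185064, minus strand) had 53.7, 43.6 and 25.9 normalised counts in control pools and 50.7, 47.3 and 40.4 in DEX pools. The values at 1 week of recovery were 35.7, 13.8 and 24.4, all below the DEX pools, and at 4 weeks 41.8, 46.4 and 26.8. Its log2 fold change at 1 week was −1.002 against DEX and −0.78 against control (limma, adjusted p = 0.270 and 1.0). Without pool 2 at 1 week, the lowest of the 12, these became −0.64 and −0.41, with unadjusted p above 0.05 in limma. By 4 weeks of recovery the *Cry1* pools lay within the range of the controls.

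*Cry2* (chromosome 2, 92403646 to 92434043, minus strand) had the most reads of the 10 genes, with 233, 212 and 104 normalised counts in control pools, 181, 141 and 124 in DEX pools, 141, 162 and 45.6 at 1 week and 169, 109 and 128 at 4 weeks. The lowest value in its group came from pool 3 both in controls and at 1 week, the pools that stood apart. Its log2 fold change was −0.23 for DEX against control and became −0.60 without control pool 3. At 1 week against control it was −0.77, and −0.19 without pool 3 at 1 week. None of these 4 values was called.

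*Arntl* and *Clock* encode the activator pair. *Arntl* (chromosome 7, 113207465 to 113314126, plus strand) held 63.7, 64.2 and 46.1 normalised counts in control pools, 40.6, 48.4 and 40.8 in DEX pools, 66.1, 38.0 and 39.0 at 1 week and 44.0, 38.4 and 32.9 at 4 weeks. The pools at 4 weeks lay below all controls, with a log2 fold change of −0.59 (limma, unadjusted p = 0.0398, adjusted p = 0.765), and the DEX pools overlapped the controls with −0.41 (interval −0.97 to 0.14). *Arntl* varied least of the members over the 12 libraries, with an SD of 0.333 on the log2 scale, above 31.4% of the 11614 genes with a mean of at least 5, whereas the SD of *Per3* was 0.880 and above 93.5% of those genes.

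*Clock* (chromosome 5, 76209868 to 76304792, minus strand) held 50.0, 44.6 and 44.5 normalised counts in control pools and 55.2, 53.4 and 38.2 in DEX pools. At 1 week the values were 41.3, 31.4 and 80.8, and at 4 weeks 44.1, 40.5 and 29.2. Pools at 4 weeks were below all control pools by a narrow margin and overlapped the DEX pools, with a log2 fold change of −0.37 against DEX (interval −1.03 to 0.30). Pool 3 at 1 week, with the highest *Clock* value, was also the highest of its group for *Per2*, *Per3* and *Dbp* and the lowest for *Cry2*, *Nr1d1* and *Nr1d2*.

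The REV-ERB genes encode the repressors of *Arntl*. *Nr1d2* (chromosome 14, 18204054 to 18239127, minus strand) held 73.3, 72.8 and 18.8 normalised counts in control pools and 164, 104 and 134 in DEX pools. It held 83.9, 60.2 and 36.6 at 1 week and 89.1, 64.2 and 66.1 at 4 weeks. The 3 DEX pools were above the other 9. The log2 fold change for DEX against control was 1.498 (SE 0.439, limma, adjusted p = 0.339), and without control pool 3, the lowest of the 12, it was 0.85 (adjusted p = 0.796). Against DEX it was −1.21 at 1 week and −0.86 at 4 weeks (adjusted p = 0.294 and 0.558).

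*Nr1d1* (chromosome 11, 98767932 to 98775333, minus strand), the better known REV-ERB gene, held 48.4, 80.7 and 60.6 normalised counts in control pools, 52.8, 70.4 and 89.8 in DEX pools, 93.2, 110 and 45.7 at 1 week and 131, 47.4 and 79.2 at 4 weeks. Every group overlapped every other. Its log2 fold change was 0.17 for DEX against control (interval −0.65 to 0.98) and 0.35 for 4 weeks against control (interval −0.46 to 1.17), and both changed sign when single pools were left out. The exons of *Nr1d1* share 263 bp with those of *Thra* on the other strand, 8.55% of its exon length, and the kit does not mark strand, so reads there cannot be told apart.

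*Dbp* (chromosome 7, 45705088 to 45710203, plus strand), the D-box activator that reads out the clock, held 7.16, 12.7 and 18.6 normalised counts in control pools and 24.1, 21.4 and 48.8 in DEX pools. It held 11.03, 13.0 and 16.2 at 1 week and 16.7, 9.63 and 16.3 at 4 weeks. As with *Nr1d2* and *Per3*, the 3 DEX pools were the highest of the 12. The log2 fold change was 1.29 for DEX against control (SE 0.391, limma, adjusted p = 0.361), −1.14 for 1 week against DEX and −1.08 for 4 weeks against DEX (adjusted p = 0.254 and 0.293). For DEX against control it was 1.61 without control pool 3 (limma, adjusted p = 0.296). With single pools left out it ran from 0.92 to 1.61 and was never called. Exons of *Dbp* and its neighbour *Sphk2* overlap on opposite strands over 539 bp, 18.01% of the exon length of *Dbp*, and *Sphk2* itself was listed at 30.1 to 101 normalised counts. Smaller overlaps existed between *Cry2* and D930015M05Rik (295 bp, 4.67%) and between *Arntl* and Gm45355 (33 bp, 0.439%).

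Counted over the list, 0 of 10 members were called for DEX against control, where 0.121% of all genes were, and 3 had an unadjusted p under 0.05 with higher values in DEX pools, where 3.6% of all genes did (6.8% in either direction). DEX pools lay wholly above control pools for those 3 members, and for 6.61% of all genes. The median log2 fold change of the list was 0.20, against −0.02 over all genes tested. On recovered reads edgeR's likelihood ratio test called 1 member (*Nr1d2*, adjusted p = 0.0183) and 1.11% of all genes. The quasi-likelihood test of edgeR and DESeq2 called 0 members, with 0.17% and 0.769% of all genes called. Each of these tools had 3 members at an unadjusted p under 0.05. By that measure the likelihood ratio test counted 2130 genes and each of the others 1666, of 24722 to 24736 tested. At 1 week of recovery against control no gene of the table was called in limma, and 1 member (*Cry1*, lower) had an unadjusted p under 0.05, where 1.98% of all genes were lower by that measure (3.79% in either direction). At 4 weeks against control no gene of the table was called in limma either. There 3 members, *Per1*, *Per3* and *Arntl*, were lower at an unadjusted p under 0.05 (2.92% of all genes, 6.35% in either direction), and 4 lay wholly below the controls (6.42% of all genes). In these 2 comparisons edgeR's quasi-likelihood test, its likelihood ratio test and DESeq2 also called 0 members. They called 0.00404%, 0.202% and 0.0324% of all genes at 1 week and 0%, 0.368% and 0.243% at 4 weeks. At an unadjusted p under 0.05 they counted 0 to 1 members and 761 to 1104 genes at 1 week. By the same measure they counted 2 to 3 members and 1445 to 2109 genes at 4 weeks.

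In both comparisons with the end of DEX most members had negative differences. At 1 week, 0 members were called by limma, edgeR's quasi-likelihood test and DESeq2, which called 0.433%, 0.55% and 2.32% of all genes. The likelihood ratio test of edgeR called 2 members (*Per3* and *Nr1d2*) and 2.85% of all genes. There 4 members were lower at an unadjusted p under 0.05 (*Per3*, *Cry1*, *Nr1d2* and *Dbp*; 5.59% of all genes, 10.8% in either direction), the same 4 lay wholly below the DEX pools (6.87% of all genes), and the list had a median log2 fold change of −0.64 against 0.03 over all genes. At 4 weeks, besides the called *Per3*, the members lower at an unadjusted p under 0.05 were *Per1*, *Per2* and *Dbp* (4 with *Per3*; 4.62% of all genes, 9.94% in either direction), 4 members (*Per1*, *Per3*, *Nr1d2* and *Dbp*) lay wholly below the DEX pools (9.67% of all genes), and the median was −0.62 against 0.00 over all genes. *Arntl* and *Nr1d1* were the 2 members with positive log2 fold changes at 1 week against DEX. Between 4 weeks and 1 week of recovery 0 members and 0 genes of the table were called in limma. There 1 member (*Per1*, lower) had an unadjusted p under 0.05, where 5.47% of all genes did, 1.77% with lower values. Quasi-likelihood and likelihood ratio tests of edgeR and DESeq2 called 0 members, with 0%, 0.651% and 0.0607% of all genes called.

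In many tissues *Arntl* runs against *Per3*, *Dbp* and the REV-ERB genes over the day. The difference between such a gene and *Arntl* within a pool does not depend on the scaling of that library. *Per3* less *Arntl*, on the log2 scale, was 0.07, −0.63 and −0.09 in control pools and 1.61, 1.04 and 1.05 in DEX pools. It was −1.05, −0.67 and 0.90 at 1 week and −0.32, −1.10 and −0.26 at 4 weeks. The 3 DEX pools were the highest of the 12, with pool 3 at 1 week next to them. *Nr1d2* less *Arntl* ran from −1.29 to 0.20 in control pools, 1.10 to 2.01 in DEX pools, −0.09 to 0.66 at 1 week and 0.74 to 1.02 at 4 weeks, so that the pools at 4 weeks lay above all controls and below all DEX pools. *Dbp* less *Arntl* was −3.14 to −1.31 in controls and −1.17 to 0.26 in DEX pools, where it overlapped the values at 4 weeks (−1.98 to −1.01). *Nr1d1* less *Arntl* had overlapping groups, with means of 0.11, 0.69, 0.75 and 1.05 in control, DEX, 1 week and 4 weeks. These differences were chosen after earlier results were known and are given without a test.

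**Figure D3:**
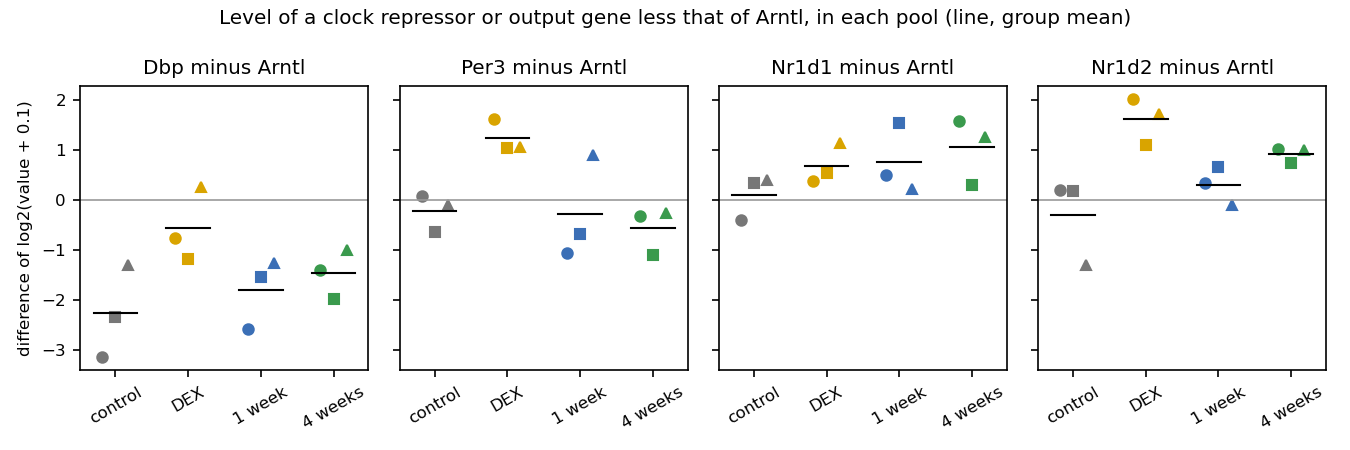
Difference on the log2(value + 0.1) scale (vertical axis) between *Dbp*, *Per3*, *Nr1d1* or *Nr1d2* and *Arntl* in the same pool, for control, DEX, 1 week and 4 weeks of recovery. Circles, squares and triangles are pools 1, 2 and 3, the short line is the group mean and the grey line marks equal values. The DEX pools are highest for *Per3* (1.04 to 1.61) and *Nr1d2* (1.10 to 2.01), while the groups overlap for *Nr1d1*.

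Levels of different genes were compared per kilobase of exon. In control pools *Cry2* was highest with a mean of 29.0 normalised counts per kb (16.4 to 36.9), followed by *Nr1d1* with 20.5 (15.7 to 26.2), *Cry1* with 12.3 (7.75 to 16.1), *Nr1d2* with 10.2 (3.48 to 13.6) and *Per1* with 9.69 (7.50 to 13.9). *Arntl* had 7.71, *Per3* 5.26, *Dbp* 4.28, *Clock* 3.38 and *Per2* 2.24 normalised counts per kb. Neighbours in this order overlapped in range, except *Clock* (3.24 to 3.65) and *Per2* (1.65 to 2.90). In DEX pools *Nr1d2* had a mean of 24.8 per kb (19.2 to 30.4) and *Dbp* 10.5 (7.16 to 16.3), while *Clock* at 3.56 and *Per2* at 3.24 remained the lowest pair. *Per3* had a mean of 10.7 per kb in DEX pools and 2.79 at 4 weeks of recovery, where it stood next to *Clock* at 2.76.

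**Figure D4:**
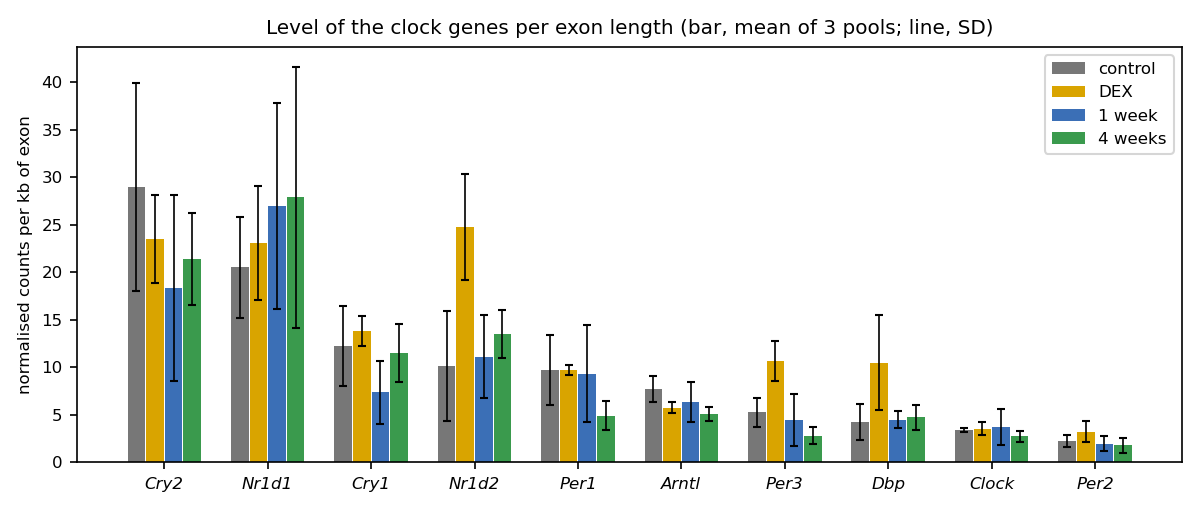
Mean normalised counts per kb of exon (vertical axis, from 0) of the clock genes in the 4 groups, with lines for the SD of 3 pools. *Cry2* and *Nr1d1* are highest in control pools at 29.0 and 20.5 per kb, *Per2* is lowest in every group, and *Nr1d2*, *Per3* and *Dbp* have their highest bars in DEX pools.

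A list of 22 other genes of the clock and its output, all tested, gave a frame for the members. Limma called none of the 22 across the groups. There edgeR's quasi-likelihood test called 1, DESeq2 3 and edgeR's likelihood ratio test 4, with 0.639%, 2.97% and 4.18% of all genes called. Limma called none for DEX against control, where these tools called 0, 1 and 1, with 0.17%, 0.769% and 1.11% of all genes called. In that comparison 3 (*Tef*, *Usp2* and *Ciart*) were higher at an unadjusted p under 0.05 in limma, where 3.6% of all genes were. There 17 had positive log2 fold changes, where the median over all genes was −0.02. In each comparison of recovery with DEX limma and edgeR's quasi-likelihood test called 1 gene, which was *Ciart* in limma, where limma called 0.433% of all genes at 1 week and 0.873% at 4 weeks. The quasi-likelihood test called 0.55% of all genes at 1 week and 0.865% at 4 weeks. DESeq2 called 3 of the 22 at 1 week (2.32% of all genes) and 4 at 4 weeks (2.65%). The likelihood ratio test of edgeR called 3 in each, with 2.85% and 2.64% of all genes called. At an unadjusted p under 0.05, 8 genes were lower in limma at 1 week against DEX (5.59% of all genes) and 6 at 4 weeks against DEX (4.62% of all genes). The list had medians of 0.30 for DEX against control, −0.75 for 1 week against DEX and −0.42 for 4 weeks against DEX. Against control 4 of the 22 were lower at an unadjusted p under 0.05 in limma at 1 week (1.98% of all genes) and 2 at 4 weeks (2.92%). Their medians against control were −0.28 at 1 week and −0.32 at 4 weeks, with 0.00 over all genes in each. *Ciart* is among the genes the study picked from these libraries, so its presence here is not independent evidence of a direction.

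*Ciart* encodes a repressor of the CLOCK and BMAL1 pair. It held 12.3, 12.3 and 6.96 normalised counts in control pools, 46.1, 16.3 and 34.4 in DEX pools, 9.22, 5.61 and 3.67 at 1 week and 7.95, 2.96 and 4.87 at 4 weeks. The DEX pools were the highest 3 of the 12. It fell from DEX by 2.34 on the log2 scale at 1 week (limma, adjusted p = 0.0378), or 5.07-fold, and by 2.58 at 4 weeks (adjusted p = 0.0202), or 5.98-fold, while its log2 fold change of 1.53 for DEX against control was not called (adjusted p = 0.366). The call at 4 weeks was lost in 4 fits that left out DEX pool 1 or 3 or pool 2 or 3 at 4 weeks, and the call at 1 week in 7 fits that left out single pools.

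*Tef*, a D-box factor related to *Dbp*, held 52.7, 49.8 and 50.2 normalised counts in control pools, 107, 79.2 and 151 in DEX pools, 40.4, 63.3 and 56.7 at 1 week and 59.8, 57.9 and 61.7 at 4 weeks. *Usp2*, a deubiquitinase that acts on clock proteins, held 103, 99.8 and 115 in control pools, 163, 141 and 255 in DEX pools, 98.7, 84.5 and 77.6 at 1 week and 102, 70.5 and 81.4 at 4 weeks. Both had their 3 highest values in the DEX pools. The log2 fold changes of *Tef* were 1.09 for DEX against control, −1.05 for 1 week against DEX and −0.86 for 4 weeks against DEX (limma, adjusted p = 0.148, 0.0861 and 0.159). Those of *Usp2* were 0.77, −1.06 and −1.11 (adjusted p = 0.447, 0.0759 and 0.0550). Limma called neither gene, whereas DESeq2 called *Tef* in all 3 comparisons (adjusted p = 0.00721, 0.00747 and 0.0321) and *Usp2* at 1 week and 4 weeks against DEX (adjusted p = 0.00407 and 0.00183). The likelihood ratio test of edgeR called *Usp2* in both of the latter (adjusted p = 0.0477 and 0.0363).

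**Figure D5:**
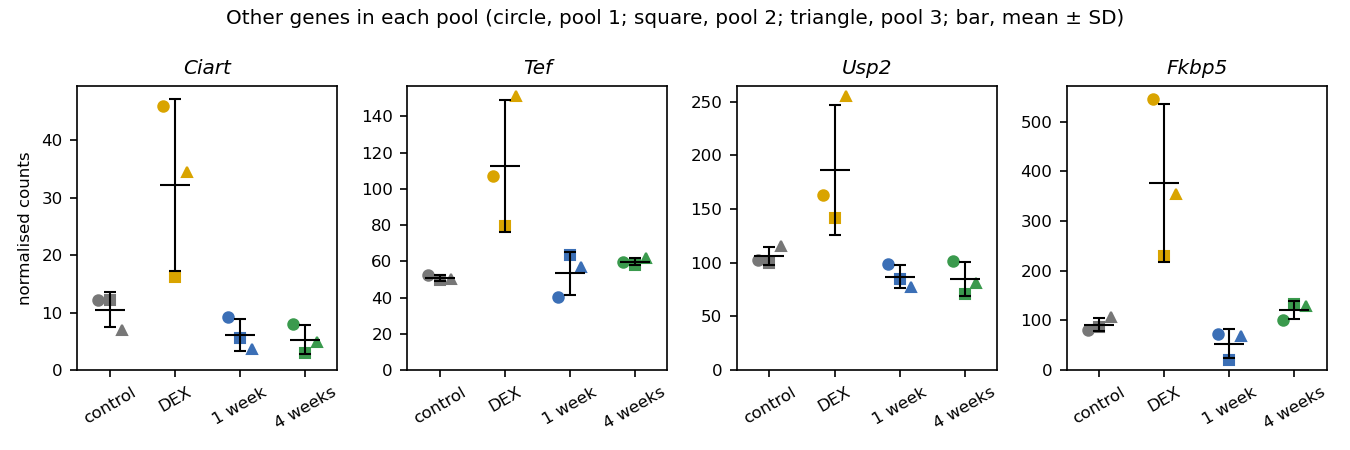
Normalised counts (vertical axes, from 0) of *Ciart*, *Tef*, *Usp2* and *Fkbp5* in each pool of the 4 groups, with symbols for pools 1 to 3 and bars for the mean and SD. For all 4 genes the 3 DEX pools lie above the 9 pools of the other groups, with *Ciart* from 16.3 to 46.1 and *Fkbp5* from 230 to 546.

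Genes of the glucocorticoid response were set beside the clock. *Fkbp5*, a chaperone partner of the glucocorticoid receptor and a textbook target of it, held 80.8, 86.8 and 106 normalised counts in control pools, 546, 230 and 354 in DEX pools, 72.1, 19.5 and 68.3 at 1 week and 100, 133 and 130 at 4 weeks. It was called across the groups (limma F test, adjusted p = 0.0229) and fell by 2.95 on the log2 scale between DEX and 1 week (adjusted p = 0.00581). For DEX against control its log2 fold change was 1.97 (adjusted p = 0.0971), and for 4 weeks against DEX −1.56 (adjusted p = 0.105). Other tools called *Fkbp5* for DEX against control, with adjusted p of 0.00114 in DESeq2 and 5.18e-06 in edgeR's likelihood ratio test. Both also called it for 4 weeks against DEX, with adjusted p of 0.00981 in DESeq2 and 0.000383 in the likelihood ratio test. Of the 10 listed targets, limma called 1 across the groups (0.315% of all genes) and 0 for DEX against control (0.121% of all genes). For DEX against control 4 were higher at an unadjusted p under 0.05 (3.6% of all genes), and 3 lay wholly above the control pools (6.61%). *Mt1* (2916 to 3698 against 4267 to 4398) and *Mt2* (564 to 651 against 722 to 1025) lay wholly below them. Against control 6 targets were lower at an unadjusted p under 0.05 at 1 week (1.98% of all genes) and 3 at 4 weeks (2.92%). At 1 week against DEX limma called 3 (*Fkbp5*, *Zbtb16* and *Pik3ip1*, all lower), where 0.433% of all genes were called. At 4 weeks against DEX it called 2 (*Zbtb16* and *Pik3ip1*), where 0.873% of all genes were called. These 2 genes, and *Mt1* and *Mt2*, were named after their values were seen. Across the groups edgeR's quasi-likelihood test called 3, its likelihood ratio test 5 and DESeq2 4, with 0.639%, 4.18% and 2.97% of all genes called. For DEX against control these tools called 1, 2 and 2, with 0.17%, 1.11% and 0.769% of all genes called. At 1 week against DEX they called 3, 5 and 4 (0.55%, 2.85% and 2.32% of all genes). At 4 weeks against DEX they called 2, 4 and 4 (0.865%, 2.64% and 2.65% of all genes). *Fkbp5*, *Zbtb16* and *Pik3ip1* are also among the genes the study picked from these libraries.

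Immediate early genes, which respond within minutes to stimulation and to cell dissociation, were the last list. Limma called none of the 12 in any comparison. Across the groups edgeR's quasi-likelihood test called 0, edgeR's likelihood ratio test 2 and DESeq2 3, with 0.639%, 4.18% and 2.97% of all genes called. In limma's F test 3 of the 12 had an unadjusted p under 0.05, where 9.21% of all genes did. They were *Egr2*, *Fosb* and *Jund* (adjusted p = 0.212, 0.411 and 0.439). At an unadjusted p under 0.05 in limma, 1 was higher for DEX against control, where 3.6% of all genes were. By the same measure 4 were lower in each comparison of recovery with DEX, where 5.59% of all genes were at 1 week and 4.62% at 4 weeks. Here edgeR's quasi-likelihood test, its likelihood ratio test and DESeq2 called 0, 2 and 3 at 1 week (0.55%, 2.85% and 2.32% of all genes). At 4 weeks they called 0, 2 and 2 (0.865%, 2.64% and 2.65%). The median log2 fold change of the list at 1 week was −0.80 against DEX and −0.58 against control. Over all genes these medians were 0.03 and 0.00. The part of the immediate early genes in the *Per1* values was not tested.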

How the data were processed

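RNA of sorted *Pomc*-eGFP cells was sequenced in 12 libraries, 3 for each of 4 groups assigned from the sample labels. RNA below the detection limit was amplified with the SMART-V4 kit, which does not mark strand, and sequenced on 1 lane. The authors trimmed reads with Trim Galore 0.6.5, aligned them to GRCm38 with STAR 2.7.1a, and counted pairs at a mapping quality of at least 20 on Ensembl release 98 with featureCounts 2.0.0 in reverse stranded mode. The deposited unit is a normalised signal for each gene, the authors' CPM on TMM-scaled library sizes, and not the plain CPM that the design had assumed. Whole reads were recovered from all 271881 values above 0, none of which lay further than 6.29e-09 from an integer. Replicates are pools, and p-values measure the spread between pools. No 2 libraries of a group were identical.

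Genes above 0.1 in at least 3 libraries were fitted with limma 3.58.1 (R 4.3.3) on log2(value + 0.1), with trend, all 12 libraries in 1 model and no covariate. An F test over the 3 contrasts with control and 6 pairwise contrasts used Benjamini-Hochberg adjustment, and single values were compared with two-sided exact permutation tests. The scale understates changes of low genes. Alternatives were pseudocounts of 0.5 and 1, other filters and scalings, array weights, robust moderation, the replicate number as a block, only the compared groups, each library left out in turn, and, on the recovered reads, DESeq2 1.42.0 and the likelihood ratio and quasi-likelihood tests of edgeR 4.0.16. The fits were tested on simulated data. Libraries carry no molecular identifiers, so read counts bound only the counting error.

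The members, the list of 22 other clock genes, the 10 glucocorticoid targets, the 12 immediate early genes and the markers were chosen with earlier results of these data known. All members were named. In the other lists a gene was named if called in the F test or against control, or otherwise the 3 genes with the smallest F test p. Genes nearest to *Dbp*, *Arntl*, *Per1* and *Nr1d1* were ranked by the root mean square of the difference of log2 values, each centred on its mean over the 12 libraries. Gene positions and exon lengths are from GENCODE M21 (GRCm38).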

Additional observations from a re-analysis of the deposited data

Results flagged for a closer look

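In 4 results the difference between a treated group and control differed between time points, as tested by limma's contrast of the treated groups. *Per3* at 4 weeks of recovery against DEX (log2 fold change −1.97, adjusted p = 0.0235) was one. *Ciart* at 1 week (−2.34, adjusted p = 0.0378) and at 4 weeks (−2.58, adjusted p = 0.0202) against DEX and *Fkbp5* at 1 week against DEX (−2.95, adjusted p = 0.00581) were the others. In each of the 4 all pools of the recovery group lay below all DEX pools, 3 against 3. Beyond the chi-square per gene between pools and the fits with pools left out, groups of 3 pools were not searched for single outlying pools.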

How the results depend on the processing

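The number of clock genes called moved between 0 and 3, and the cause was not tested unless the alternative itself has fewer samples. Across the 4 groups 0 members were called, but array weights called 2, edgeR's likelihood ratio test 3, DESeq2 1, and 1 was called with control pool 3 and pool 3 at 1 week left out together, an alternative chosen after seeing the data; with single pools left out the count ran from 0 to 1 (1 without pool 3 at 1 week). For DEX against control edgeR's likelihood ratio test called 1 in place of 0. For 1 week against DEX, 0 became 2 under array weights, 2 by the likelihood ratio test of edgeR, 1 with both pools left out together and 0 to 1 with single pools left out. For 4 weeks against DEX, 1 became 3 with array weights (*Per1*, *Per2* and *Per3*), 0 with only the compared groups in the fit and 0 to 1 with single pools left out. *Per3* at 4 weeks against DEX was not called with only these groups (adjusted p = 0.0621) and was called in the other 13 of 14 alternatives that were not single pools left out, with log2 fold changes from −2.17 to −1.93. Values near 0 changed sign. *Per1* for DEX against control was −0.0042 with quantile normalisation, −0.0141 with DESeq2, and −0.0799 and −0.0692 without control pool 1 or 2 (up to 0.37 with single pools left out). *Nr1d1* for DEX against control was −0.0276 with array weights, −0.0107 without control pool 1 and −0.0199 without DEX pool 3 (up to 0.36 with single pools left out), and for 4 weeks against control −0.0131 without pool 1 at 4 weeks (up to 0.72). *Ciart* at 1 week against DEX lost its call with quantile normalisation, only the compared groups, both pools left out together, or without control pool 1 or 2, DEX pool 1 or 3, pool 2 or 3 at 1 week or pool 3 at 4 weeks (adjusted p from 0.0506 to 0.297), and *Fkbp5* lost its call across the groups without control pool 2, DEX pool 1 or 3, or pool 2 or 3 at 4 weeks (0.0503 to 0.205). Only the compared groups in the fit also ended the calls of *Ciart* at 4 weeks (0.0900) and *Fkbp5* at 1 week (0.276) against DEX. Over all genes, limma called 78 across the groups, 30 for DEX against control, 107 for 1 week against DEX and 216 for 4 weeks against DEX. These counts were 1069, 166, 566 and 1300 under array weights, 734, 190, 573 and 655 in DESeq2, 1033, 274, 705 and 654 by the likelihood ratio test of edgeR, and 232, 37, 177 and 510 with both pools left out together. Other counts that moved were 158 across the groups with edgeR's quasi-likelihood test, 49 and 54 for DEX against control with pseudocounts of 0.5 and 1, and 1, 0 and 21 in the last 3 comparisons with only the compared groups. With single pools left out they ran from 7 to 185, 2 to 73, 16 to 200 and 18 to 393. Pools with the same number did not deviate together as a whole, with correlations from −0.294 to 0.397 over 18 pairs and a median of 0.056, so the numbers do not pair the pools. The highest, 0.397, was between control pool 3 and pool 3 at 1 week, the 2 pools left out together above. With the replicate number as a block, the counts were 85, 34, 139 and 241, the clock genes called were 0, 0, 0 and 1, and *Per3* at 4 weeks against DEX was −1.97. The block brought *Ciart* across the groups (adjusted p = 0.0274) and *Usp2* at 4 weeks against DEX (0.0464) under the threshold and changed no other call of a clock gene, *Ciart*, *Tef*, *Usp2* or *Fkbp5* in the comparisons given. Low genes limit the precision, since *Per2* rests on 70 reads in its lowest pool.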

Other observations

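The genes whose pattern over the 12 libraries was nearest to a clock gene were mostly not clock genes. Among 11613 genes with a mean of at least 5, those nearest to *Dbp* were *Slc41a3*, *Gnmt* and *Chek2*, with root mean square differences of 0.294, 0.328 and 0.348 on the log2 scale, and the clock output genes *Tef* and *Usp2* ranked 7 and 13. *Pon3* (0.133), *Slbp* and *Nfyb* were nearest to *Arntl*, *Arrb1* (0.236), *Polr2a* and *Josd2* to *Per1*, and *Large2* (0.247), *Zkscan6* and *Zfp689* to *Nr1d1*. For *Per3*, added after its values were seen, *Etl4* (0.402), *Srpk1* and *Antxr1* were nearest, while *Per2* ranked 68 and *Usp2* 124. The libraries share their scaling and their cell mixture, and no test was attached to these ranks.

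The spread over the 12 libraries divided the clock genes. *Per3*, *Nr1d2* and *Dbp* had SDs of 0.880, 0.821 and 0.705 on the log2 scale, above 93.5%, 91.6% and 86.3% of 11614 genes. *Arntl* and *Clock*, the activator pair, had SDs of 0.333 and 0.385, above 31.4% and 44.1%. *Cry1*, *Cry2*, *Per1*, *Per2* and *Nr1d1* lay between, from 0.503 to 0.611.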
